A study of Mus musculus with 12 samples.

Results

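The comparison described here is the difference between the cytokine responses of mouse islets of 2 genotypes. For each gene, the log2 change with cytokines in control islets was subtracted from the log2 change with cytokines in islets labelled bKO. A value of 0 means that both genotypes responded by the same factor. A positive value, called higher below, means a more upward or less downward response in the islets labelled bKO, and a negative value, called lower, the opposite. The genes compared were all that passed a filter on low counts, 19800 of the 55536 in the full count table. The filter kept genes at about 0.168 CPM (counts relative to the scaled library size) or more in at least 3 libraries and used no response. Fam209 and Slc24a1 lay just inside it, with a third-highest library at 0.1683 CPM, and Fcrla and Wfdc1 just outside, at 0.1676 CPM.

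The series holds 12 libraries of total RNA from pancreatic islets, 3 in each of 4 groups, from mice aged 16 weeks on a mixed C57BL/6J background. Controls are labelled PTPN2 +/+ in the titles and fl/fl in the genotype field, so the floxed allele may be present in them without excision. The other genotype is labelled PTPN2 -/- in the titles and bKO in the protocols, taken to mean that beta cells lack the gene. The Cre driver and the floxed exon were not stated in the sources used here. Within each genotype, 3 libraries came from untreated islets and 3 from islets exposed to IFN-gamma, TNF-alpha and IL-1beta for 24 h. Islets of each genotype came from 3 mice, so some libraries of a genotype must share a mouse, without a label that says which. All 12 libraries were treated as independent, so the p-values measure the spread between these libraries.

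The Ptpn2 protein is a tyrosine phosphatase. It switches off JAK kinases and STAT proteins, through which interferons and many other cytokines act, by removing their phosphate. IFN-gamma works through STAT proteins, the interleukin-6 family mainly through STAT3, and IL-1beta and TNF-alpha through NF-kB. In islets this cytokine mixture is a common model of the inflammation of type 1 diabetes: it switches on antigen presentation, chemokines and nitric oxide synthase and lowers genes of mature beta cells. The comparison asks whether these responses differ with the Ptpn2 genotype.

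Libraries held 47064061 to 107515565 counts. Insulin RNA (Ins1 and Ins2) took 12.2% to 14.9% of the counts in 11 libraries and 8.15% in the remaining one, replicate 2 of the cytokine-treated bKO group, called the low-insulin library below. It also stood farthest from its group, with a root mean square log2 deviation of 0.394 against 0.136 to 0.278 in the others. Its summed ductal markers were at 11100 CPM against 6510 and 8090 CPM in the other libraries of its group, and its stellate and pericyte markers at 8430 CPM against 3400 and 3220 CPM. Values without it are given beside some results below, and a result without such a value may also depend on it. Its part in any result beyond that was not tested. In bulk tissue, fewer cells of a type and less RNA per cell cannot be told apart.

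Ptpn2 RNA, summed over the whole gene, was not lower in the groups labelled bKO than in the control groups of the same treatment. Untreated control libraries held 30.3, 31.5 and 31.4 CPM and treated ones 88.9, 90.4 and 78.3 CPM. Untreated libraries labelled bKO held 36.7, 33.8 and 35.5 CPM and treated ones 111, 84.2 and 107 CPM. The treated libraries were above the untreated ones in both genotypes. The genotypes overlapped under cytokines, while every untreated library labelled bKO was above every untreated control library. The difference in response was 0.04 on the log2 scale (SE 0.14, 95% interval -0.26 to 0.34), and the adjusted p was 0.922 (edgeR). Its sign turned when 1 library was left out, to between -0.03 and 0.14. Reads summed over the gene cannot show that an exon was excised, and the other islet cell types would retain Ptpn2, so the genotype is written as a label.

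No gene passed the test of the difference in response. Of 19800 genes, 0 were higher and 0 were lower (0% called) at an adjusted p under 0.05 by edgeR's quasi-likelihood test with Benjamini-Hochberg adjustment. The smallest adjusted p was 0.213, shared by 19 genes, and 26 genes had an adjusted p under 0.25. At an unadjusted p under 0.05, 959 genes were higher (4.84%) and 1203 were lower (6.08%). DESeq2, run as an alternative, gave an adjusted p to 17865 genes and called 100 higher (0.56%) and 86 lower (0.481%), 1.04% in all. limma-voom called 0 in both directions. A gene called by DESeq2 is therefore described below as passing that test alone, and its values are given beside the edgeR result. Without the low-insulin library, described above, edgeR put 744 genes higher (3.76%) and 1101 lower (5.56%) at an unadjusted p under 0.05.

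The 2 responses themselves were broad. Cytokines raised 5298 genes (26.8%) and lowered 6704 (33.9%) in control islets, and raised 5711 (28.8%) and lowered 6647 (33.6%) in islets labelled bKO (edgeR). The difference between them had a median of 0.01 over all genes and a median absolute size of 0.23 on the log2 scale, with a median SE of 0.24. The median over all genes was -0.03 without the low-insulin library, and list medians without it are to be read against that value. The 95% interval lay within a 2-fold difference in either direction for 11618 genes (58.7%) and within a 4-fold difference for 16874 genes (85.2%). For those genes, a larger difference lies outside the interval of that gene. Estimates beyond 2-fold were made for 1609 genes (8.13%).

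**Figure D1:**
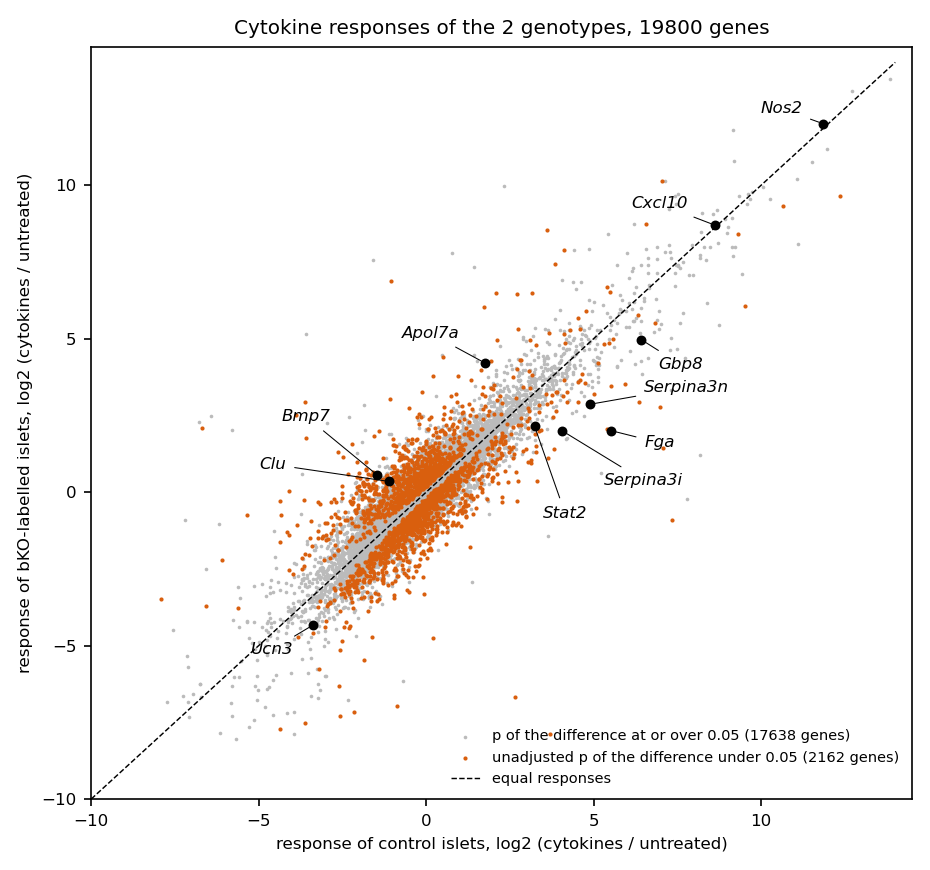
Log2 change with cytokines in control islets (x axis) against that in islets labelled bKO (y axis) for 19800 genes, 1 point each. The dashed line marks equal responses, orange points are the 2162 genes at an unadjusted p under 0.05 for the difference, and 11 genes described in the text are named.

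Genes at an unadjusted p under 0.05 were sorted by whether the response itself passed in each genotype. Of the 2162 genes, 473 (21.9%) fell in both genotypes with a larger estimate in islets labelled bKO, against 16.7% of all genes. Another 128 (5.92%, against 11.3%) fell in both with a smaller estimate. Among genes that rose in both, 201 (9.3%, against 12.4% of all genes) had the larger and 190 (8.79%, against 10.7%) the smaller estimate in islets labelled bKO. The test of the response passed in islets labelled bKO alone for 563 genes (26%, against 11.3% of all genes) and in controls alone for 427 (19.8%, against 9.48%). It passed in neither for 162 (7.49%, against 28.1%). The 2162 genes were selected by the p of the difference between the same responses that sort them here. Their shares therefore depend on that selection, and no conclusion is drawn from how they differ from the shares of all genes. Passing in 1 genotype alone does not show a difference, and the test of the difference passed for none of the 2162 genes.

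Only 18 genes passed the test of the response in both genotypes with opposite signs (0.0909% of all genes), which were singled out after their values were seen. Among them, Raet1e, Ggt1 and Acacb are described below. Chrm3, the muscarinic receptor through which acetylcholine promotes insulin release, rose in controls by log2 0.49 and fell by 0.52 in islets labelled bKO. Slc39a8, a zinc and manganese transporter, fell by 0.66 in controls and rose by 0.65 in islets labelled bKO. The adjusted p of the difference was 0.251 for Chrm3 and 0.308 for Slc39a8 (edgeR).

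Apol7a, of the apolipoprotein L family, rose in both genotypes. Control libraries went from 1.39, 0.788 and 0.919 CPM untreated to 3.96, 4.01 and 2.43 CPM with cytokines. Libraries labelled bKO went from 0.337, 0.321 and 0.356 CPM to 4.09, 6.52 and 8.20 CPM. The untreated libraries labelled bKO were the lowest of the 12 and the treated ones the highest. The difference in response was log2 2.46 (SE 0.44), with an adjusted p of 0.213 in edgeR and 0.000257 in DESeq2.

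Raet1e and Ggt1 moved in opposite directions in the 2 genotypes. Raet1e encodes a ligand of the NKG2D receptor of natural killer and T cells, and its exons overlap those of H60b and Raet1d on the same strand, so its reads are uncertain. Its control libraries held 4.59, 3.84 and 5.08 CPM untreated and 2.84, 1.93 and 2.23 CPM with cytokines. Those labelled bKO held 2.33, 1.74 and 2.57 CPM untreated and 2.96, 4.40 and 4.09 CPM with cytokines. The groups of each genotype did not overlap, and the difference was log2 1.75 (SE 0.30), with an adjusted p of 0.213 in edgeR and 4.69e-05 in DESeq2. Ggt1, gamma-glutamyltransferase, starts the breakdown of extracellular glutathione. Control libraries held 2.63, 1.93 and 2.60 CPM untreated and 1.29, 1.46 and 1.64 CPM with cytokines. Those labelled bKO held 1.25, 0.817 and 1.21 CPM untreated and 1.76, 2.94 and 2.82 CPM with cytokines. Here too the untreated and treated libraries of each genotype did not overlap. The difference was log2 1.91 (SE 0.34), with an adjusted p of 0.213 in edgeR and 9.32e-05 in DESeq2.

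Bmp7, a secreted growth factor of the BMP family, fell in controls by log2 1.46 (adjusted p = 0.000427, edgeR). Its control libraries held 3.73, 2.38 and 3.31 CPM untreated and 1.16, 1.22 and 1.04 CPM with cytokines. Libraries labelled bKO held 1.90, 1.46 and 1.13 CPM untreated and 1.62, 2.11 and 2.84 CPM with cytokines, and these 2 groups overlapped. The difference was 2.01 (SE 0.36), with an adjusted p of 0.213 in edgeR and 0.000257 in DESeq2. Hspa2, an HSP70 chaperone, had the narrowest interval of the 5 leading higher genes, at log2 0.56 (95% interval 0.34 to 0.79). Controls held 38.9, 40.3 and 41.1 CPM untreated and 41.1, 41.4 and 42.3 CPM treated, and islets labelled bKO 35.6, 34.7 and 37.0 CPM untreated and 56.7, 48.9 and 58.8 CPM treated. Hspa2 rose in islets labelled bKO by log2 0.62 (adjusted p = 1.90e-05, edgeR).

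**Figure D2:**
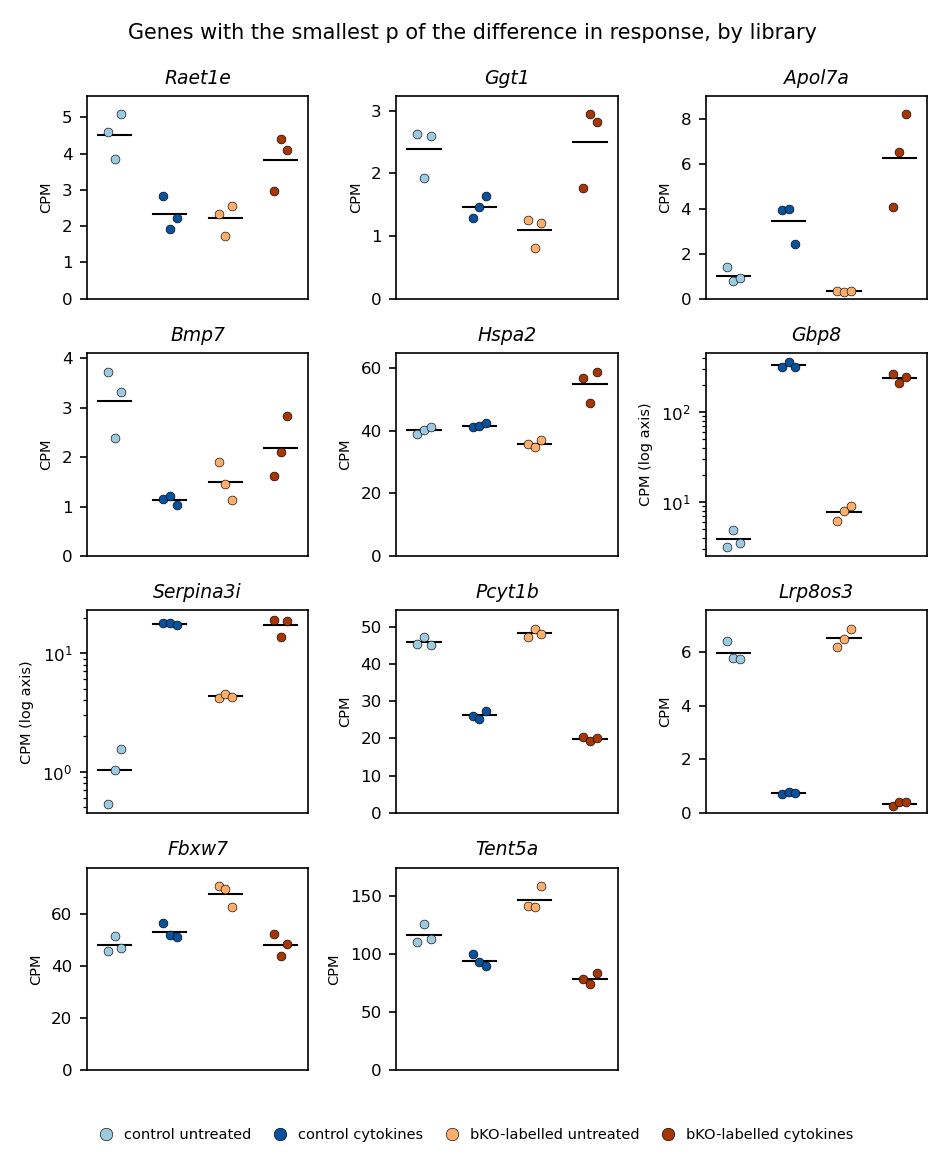
CPM in each library (points, with the group mean as a line) for 5 higher and 6 lower genes with the smallest p of the difference in response among those reported, leaving out predicted genes, ribosomal copies and genes under 1 CPM. Gbp8 and Serpina3i have a log axis and the others start at 0; the treated libraries labelled bKO of Apol7a, at 4.09 to 8.20 CPM, lie above all others.

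Among genes with a lower response in islets labelled bKO, Gbp8 had the smallest p. It encodes a guanylate-binding protein, a GTPase of the interferon-gamma programme that acts on intracellular microbes. Control libraries went from 3.18, 4.84 and 3.52 CPM to 317, 353 and 318 CPM. Libraries labelled bKO went from 6.2, 7.82 and 8.93 CPM to 264, 208 and 245 CPM. The gene thus started higher and ended lower in every library labelled bKO. The response was log2 6.42 (SE 0.20) in controls and 4.97 (SE 0.18) in islets labelled bKO. The difference was -1.46 (SE 0.23), with an adjusted p of 0.213 in edgeR and 4.69e-05 in DESeq2. With no filter on low counts edgeR called it, at an adjusted p of 0.0496. Its exons (chr5:105014150-105139540, - strand, GRCm38) overlap those of Gbp4 and Gbp9 on the same strand, so reads may be shared.

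Pcyt1b, an enzyme of phosphatidylcholine synthesis, fell in both genotypes, from 45.3, 47.2 and 45.0 to 26.1, 25.2 and 27.5 CPM in controls. In islets labelled bKO it fell from 47.1, 49.4 and 48.0 to 20.3, 19.2 and 20.1 CPM. The untreated groups overlapped and the treated ones did not, and the difference was log2 -0.47 (SE 0.09). Lrp8os3, a long noncoding RNA next to Lrp8, fell from 5.76 to 6.41 CPM in untreated controls to 0.713 to 0.784 CPM. In islets labelled bKO it fell from 6.18 to 6.87 CPM to 0.259 to 0.402 CPM, and the difference was log2 -1.20 (SE 0.22). Fbxw7, the substrate receptor of a ubiquitin ligase that marks cyclin E and Myc for breakdown, passed in islets labelled bKO alone. It went there from 62.8 to 70.9 CPM down to 43.8 to 52.3 CPM, while controls held 45.8 to 51.8 CPM untreated and 51.1 to 56.6 CPM treated. Its difference was -0.63 (SE 0.12). Tent5a, a poly(A) polymerase, fell in both genotypes, and its difference was -0.59 (SE 0.11). All 4 had an adjusted p of 0.213 in edgeR and passed in DESeq2, at 9.32e-05, 0.00545, 0.00396 and 0.00268 in the order named.

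Acute phase genes, many of them targets of STAT3, had the widest range of the 37 lists, from log2 -3.51 to 4.15. Of 32 tested genes of this list, 6 were higher and 8 were lower at an unadjusted p under 0.05, and 2 had an interval within 2-fold. For this and every list below, the shares over all genes were 4.84% higher, 6.08% lower and 58.7% within 2-fold. Without the low-insulin library 3.76% of all genes were higher and 5.56% lower. The list median was 0.14, and -0.09 without the low-insulin library. Over the other libraries left out in turn it ran from -0.19 to 0.35, so its sign is not settled. In controls 25 of the 32 rose and 3 fell, and in islets labelled bKO 26 rose and 0 fell (edgeR).

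Serpina3i and Fga led the lower genes of this list, and the 250 bases before the RefSeq start of each (GRCm38.p6, + strand) are shown because each holds the spaced palindrome to which STAT dimers bind. The motif searched was TTCNNNGAA, which reads the same on both strands, and matches are in capitals. Serpina3i lies at chr12:104262872-104263121 and Fga at chr3:83025903-83026152.
Serpina3i: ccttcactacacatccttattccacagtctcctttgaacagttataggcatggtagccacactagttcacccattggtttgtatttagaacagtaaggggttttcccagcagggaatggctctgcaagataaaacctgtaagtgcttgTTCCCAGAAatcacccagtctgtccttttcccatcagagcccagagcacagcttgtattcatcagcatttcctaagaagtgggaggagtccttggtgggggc
Fga: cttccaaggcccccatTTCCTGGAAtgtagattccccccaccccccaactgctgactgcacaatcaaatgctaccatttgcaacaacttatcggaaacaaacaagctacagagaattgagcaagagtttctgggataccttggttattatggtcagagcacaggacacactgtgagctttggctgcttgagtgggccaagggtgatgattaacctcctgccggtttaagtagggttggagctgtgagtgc
Relative to the start, the match begins at -102 in Serpina3i and at -234 in Fga. The same letters occur in 8.3% of 32851 RefSeq mouse promoters of 300 bases and in 6.94% of the 16697 promoters of tested genes, so a match is a description and not a site. The window of Serpina3n held no match.

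Fga encodes the fibrinogen alpha chain, a liver protein of clotting and the acute phase. Control libraries held 0.266, 1.22 and 0.442 CPM untreated and 22, 41 and 22.6 CPM with cytokines. Libraries labelled bKO held 47.7, 39.3 and 21.2 CPM untreated and 138, 85.4 and 210 CPM with cytokines. Untreated islets labelled bKO thus overlapped treated controls, and cytokines raised the gene further. The response was log2 5.51 (SE 0.57) in controls and 2.00 (SE 0.44) in islets labelled bKO, a difference of -3.51 (SE 0.69, 95% interval -5.03 to -1.99). The adjusted p of the difference was 0.246 in edgeR and 0.014 in DESeq2. The genotypes differed before treatment by log2 5.85 (adjusted p = 0.00186, edgeR). That comparison called 15 genes higher (0.0758%) and 0 lower (0%), and it shares its untreated libraries with the difference in response. Of the 15, 5 were in the acute phase list, among them Fga, Serpina3n (adjusted p = 0.00186, edgeR) and Serpina3i (adjusted p = 0.0147, edgeR).

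The Serpina3 genes encode protease inhibitors of the acute phase and sit in a cluster of near-identical copies, so their reads may be divided among members. Serpina3n went from 3.76, 7.21 and 9.03 CPM to 168, 216 and 209 CPM in controls. In islets labelled bKO it went from 73.5, 86.7 and 74.1 CPM to 657, 332 and 712 CPM. Every library labelled bKO was above every control library of the same treatment. The difference in response was log2 -2.03 (SE 0.43, adjusted p = 0.251 in edgeR and 0.00268 in DESeq2), and -1.76 without the low-insulin library. Serpina3i went from 0.533, 1.02 and 1.56 CPM to 17.9, 17.9 and 17.3 CPM in controls, and from 4.15, 4.49 and 4.29 CPM to 19.2, 13.7 and 18.6 CPM in islets labelled bKO. Here the treated groups overlapped, and only the untreated ones stood apart. The difference was -2.07 (SE 0.37), with an adjusted p of 0.213 in edgeR and 4.69e-05 in DESeq2.

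Fgb, the fibrinogen beta chain, and Reg3a, an antimicrobial lectin of the pancreas and gut, also passed in DESeq2 and were picked after their values were seen. Fgb went from 2.49, 6.29 and 4.24 to 38.6, 76.9 and 45.8 CPM in controls, and from 120, 124 and 65.9 to 170, 147 and 348 CPM in islets labelled bKO. Its difference was log2 -2.54 (adjusted p = 0.251 in edgeR and 0.0309 in DESeq2). Reg3a went from 25.7, 18.7 and 59.7 to 1.24, 2.67 and 2.07 CPM in controls, and from 8.06, 2.87 and 6.50 to 2.75, 1.67 and 13.6 CPM in islets labelled bKO. The last 2 groups overlapped, and the difference of 4.15 (SE 1.02) had an adjusted p of 0.272 in edgeR and 0.0407 in DESeq2. Summed acinar markers, the exocrine enzymes, were at 5760 to 9760 CPM in untreated controls and 1250 to 2090 CPM in treated ones, and at 2630 to 4330 and 969 to 4000 CPM in islets labelled bKO. Reg3a is also made by acinar cells, and their part in its difference was not tested.

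Interferon target genes rose in both genotypes. All 47 tested targets rose in controls, with a median of log2 4.25, and all 47 rose in islets labelled bKO, with a median of 4.17. The difference had a median of -0.07 (-0.09 without the low-insulin library), with 17 estimates above and 30 below 0. Of the 47 intervals 29 lay within 2-fold, a share near the 58.7% of all genes. At an unadjusted p under 0.05, 4 targets were higher and 6 were lower, beside 4.84% and 6.08% of all genes. Cxcl10, a chemokine that draws T cells through CXCR3, is an example: controls went from 1.79, 1.84 and 2.03 to 798, 650 and 773 CPM, and islets labelled bKO from 1.68, 2.48 and 1.28 to 719, 776 and 776 CPM. Both pairs of groups overlapped, and the difference was log2 0.09 (95% interval -0.45 to 0.63). It was -0.11 without replicate 3 of the untreated islets labelled bKO.

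Stat2, Irf9 and Trim21 had the smallest p in the interferon target and JAK-STAT lists, all lower in islets labelled bKO. STAT2 and IRF9 are parts of the complex ISGF3, which drives genes of type I interferons, and TRIM21 is a cytosolic antibody receptor and ubiquitin ligase. Stat2 went from 33.8, 45.7 and 43.4 to 307, 461 and 390 CPM in controls. In islets labelled bKO it went from 62.3, 55.3 and 42.5 to 246, 202 and 259 CPM. The untreated groups overlapped, the treated ones did not, and the difference was log2 -1.09 (SE 0.25, 95% interval -1.64 to -0.54). Irf9 went from 23.7, 28.7 and 27.4 to 132, 143 and 133 CPM in controls, and from 32.8, 28.9 and 24.9 to 101, 80.0 and 92.9 CPM in islets labelled bKO. Again only the treated groups did not overlap, with a difference of -0.70 (SE 0.16), and its exons overlap those of Rnf31 on the same strand. Trim21 went from 8.93, 9.77 and 8.27 to 50.6, 57.3 and 55.8 CPM in controls, and from 9.01, 9.03 and 8.81 to 38, 40.1 and 39.7 CPM in islets labelled bKO. The untreated libraries of Trim21 overlapped, the treated ones did not, and its difference was -0.47 (SE 0.11). All 3 had an adjusted p of 0.251 in edgeR and passed in DESeq2, at 0.0151, 0.0318 and 0.0183 in the order named.

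The 4 interferon targets that were higher at an unadjusted p under 0.05, picked after their values were seen, were Isg15, Ifi44, Oas3 and Ifit3b. Isg15, a ubiquitin-like protein that interferon induces, went from 2.80, 3.97 and 5.93 to 80.3, 73.7 and 69.3 CPM in controls, and from 2.37, 2.90 and 1.19 to 71.1, 84.4 and 73.1 CPM in islets labelled bKO. Both pairs of groups overlapped, and the difference was log2 1.01 (SE 0.39, adjusted p = 0.406, edgeR). Ifi44 had 1.13, Oas3 1.14 and Ifit3b 0.73, with adjusted p of 0.387, 0.433 and 0.407 (edgeR).

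Stretches of the Stat2 and Trim21 promoters (RefSeq, GRCm38.p6) are shown because they hold the letters of the interferon-stimulated response element, the sequence that ISGF3 and interferon regulatory factors bind. The motif searched was GAAA, any 2 bases and GAAA, on both strands, with matches in capitals. The Stat2 stretch lies at chr10:128270248-128270497 on the + strand and holds the motif read on the other strand, at -222 from the start. The Trim21 stretch lies at chr7:102565449-102565474 on the - strand, just after the start, and holds 2 overlapping matches.
Stat2: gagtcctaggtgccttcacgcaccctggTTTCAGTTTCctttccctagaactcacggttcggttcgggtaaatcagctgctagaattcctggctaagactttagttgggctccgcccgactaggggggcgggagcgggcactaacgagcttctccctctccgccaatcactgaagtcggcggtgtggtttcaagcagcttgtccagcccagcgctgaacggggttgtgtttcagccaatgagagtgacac
Trim21: gagagGAAACTGAAAGTGAAAtttgg
The motif occurs in 3.44% of the 32851 promoters and in 3.13% of those of tested genes. Both Irf9 windows lacked these letters.

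The JAK-STAT list held little else. Of 39 tested genes, 2 were higher and 3 were lower at an unadjusted p under 0.05, beside 4.84% and 6.08% of all genes. The list median was -0.05, and 35 intervals lay within 2-fold. Socs1, a feedback inhibitor of JAK kinases, went from 1.79, 2.15 and 2.51 to 79.8, 69.6 and 87.8 CPM, and from 3.24, 2.38 and 2.46 to 98.4, 114 and 103 CPM. The treated libraries labelled bKO were all above the treated controls, yet the difference in response was 0.09 (95% interval -0.36 to 0.54). Its sign turned when 1 library was left out, over -0.04 to 0.25. Jak3 had a difference of -0.67 (SE 0.27) and Socs2, a STAT5 target that dampens growth hormone signals, one of 0.48 (SE 0.19), with adjusted p of 0.419 and 0.415 (edgeR). Without the low-insulin library Socs2 was at 0.26.

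NF-kB targets had the median closest to 0 among the inflammatory lists. Of 39 tested, all rose in controls and 38 rose in islets labelled bKO, with medians of log2 3.08 and 3.13. The median difference was 0.01 (-0.02 without the low-insulin library), 1 was higher and 3 were lower at an unadjusted p under 0.05, and 29 intervals lay within 2-fold. Nos2, the inducible nitric oxide synthase, went from 0.11, 0.235 and 0.537 to 1190, 1110 and 1140 CPM in controls and from 0.291, 0.248 and 0.325 to 1350, 952 and 1260 CPM in islets labelled bKO. The groups overlapped at both treatments. Its difference of log2 0.16 had a wide interval, -0.89 to 1.22, and turned to -0.70 without replicate 3 of the untreated controls and to -0.13 in limma-voom.

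Genes of MHC class I presentation rose in both genotypes, with a smaller median rise in islets labelled bKO. All 23 rose in each, by a median of log2 3.02 in controls and 2.74 in islets labelled bKO. The difference had a median of -0.17, with 5 estimates above and 18 below 0, and 0 were higher and 4 were lower at an unadjusted p under 0.05. The median stayed below 0, from -0.24 to -0.11, when any 1 library was left out, and was -0.16 without the low-insulin library. Nlrc5, the activator of class I genes, went from 2.66, 4.04 and 4.15 to 110, 132 and 140 CPM in controls and from 6.16, 6.26 and 4.86 to 93.2, 120 and 102 CPM in islets labelled bKO. Its untreated groups did not overlap and its treated groups did, with a difference of -0.94 (SE 0.24, adjusted p = 0.282 in edgeR and 0.0178 in DESeq2). Tap2, a chain of the transporter that moves peptides into the endoplasmic reticulum, went from 42.3, 46.9 and 48.4 to 379, 382 and 389 CPM, and from 60.8, 54.7 and 54.1 to 357, 347 and 350 CPM. Neither pair of groups overlapped, and the difference was -0.43 (SE 0.10, adjusted p = 0.251 in edgeR and 0.00581 in DESeq2). Psmb9, an immunoproteasome subunit, had -0.49 (SE 0.13) and Cd274, the checkpoint ligand PD-L1, -0.48 (SE 0.13), and neither passed in DESeq2 (adjusted p = 0.0632 and 0.0997). Exons of Nlrc5, Tap2, Psmb9 and Cd274 overlap those of other genes on the opposite strand. The strand setting of the counting was not stated, so reads may be shared. The 10 genes of MHC class II had a median of 0.07, which was -0.13 without the low-insulin library.

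**Figure D3:**
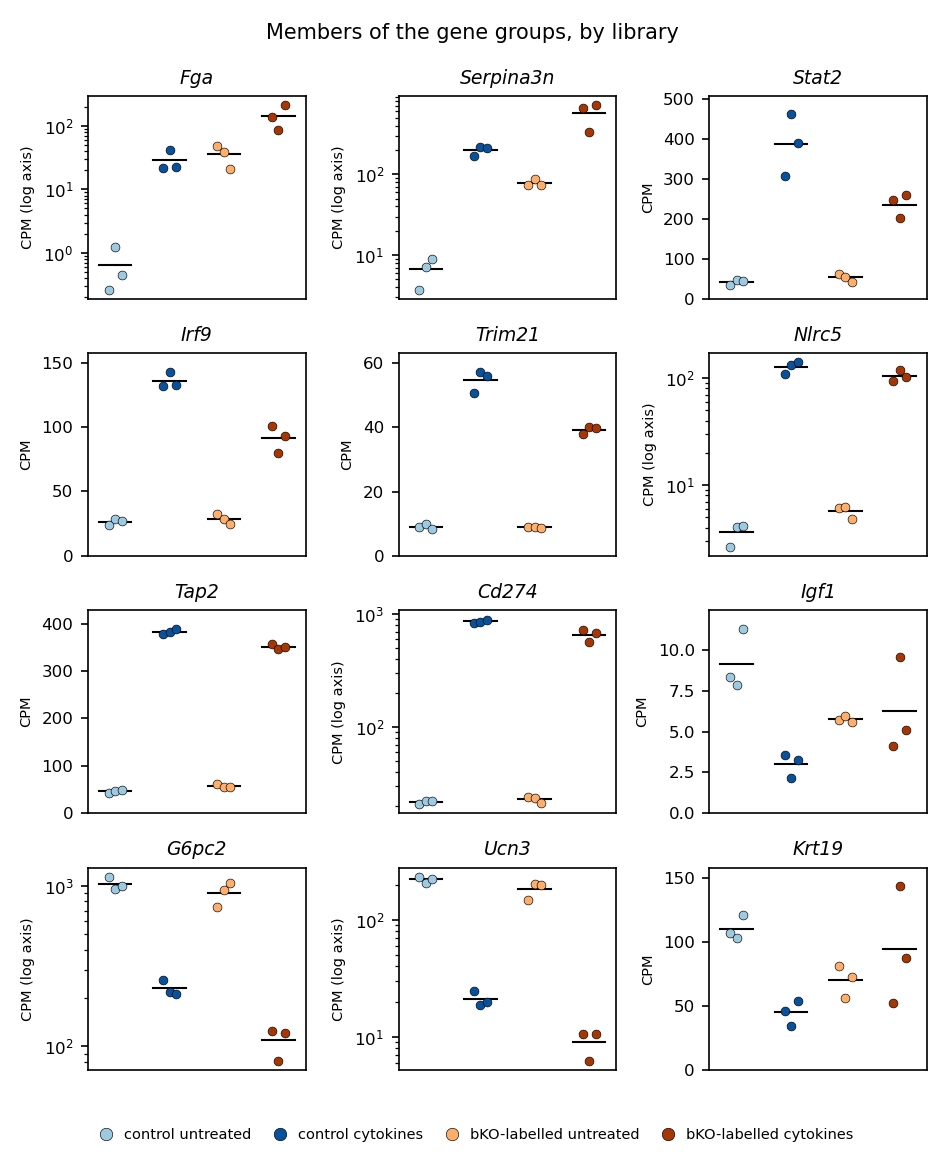
CPM in each library (points, with the group mean as a line) for 12 members of the gene groups, some on a log axis as marked. Treated Stat2, Irf9 and Trim21 are lower in the islets labelled bKO while their untreated libraries overlap, and Fga and Serpina3n are already high in untreated islets labelled bKO.

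All estimates for genes of beta cell identity, such as those for glucose sensing and insulin secretion, were below 0. Of 32 tested, 22 fell in controls and 26 in islets labelled bKO, with medians of log2 -1.19 and -1.62. The difference had a median of -0.40, and 0 were higher and 7 were lower at an unadjusted p under 0.05. Without the low-insulin library the median moved to -0.21, and 9 were lower. Their summed level, most of it Ins1 and Ins2, was 142000 to 157000 CPM in untreated controls and 158000 to 196000 CPM in treated ones. It was 140000 to 152000 CPM in untreated libraries labelled bKO and 175000, 96700 and 159000 CPM in treated ones.

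G6pc2, an islet glucose-6-phosphatase that opposes glucokinase, went from 1140, 951 and 993 to 257, 219 and 213 CPM in controls. In islets labelled bKO it went from 742, 945 and 1040 to 124, 80.8 and 121 CPM. The untreated groups overlapped and the treated ones did not. The difference was log2 -0.90 (SE 0.24), and -0.74 without the low-insulin library, with an adjusted p of 0.298 in edgeR and 0.0565 in DESeq2. Ucn3, a peptide of mature beta cells, went from 233, 206 and 225 to 24.8, 18.6 and 19.9 CPM and from 149, 203 and 198 to 10.5, 6.23 and 10.6 CPM. No library overlapped between genotypes at either treatment, and the difference was -0.95 (SE 0.27), or -0.74 without that library. The adjusted p of this difference was 0.312 in edgeR and 0.0771 in DESeq2. Rfx6, a transcription factor of endocrine cells, had -0.72 (SE 0.20, adjusted p = 0.308 in edgeR and 0.0997 in DESeq2), or -0.57 without that library. The comparison of genotypes under cytokines, which shares the treated libraries, called G6pc2 and Ucn3 among 18 lower genes (0.0909%), beside 28 higher (0.141%).

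The beta cell transcription factor Pdx1 fell in both genotypes, from 166, 131 and 129 to 22.9, 22.3 and 22.7 CPM in controls and from 118, 132 and 128 to 19.3, 16.1 and 17.2 CPM in islets labelled bKO. Its treated groups did not overlap, and the difference was log2 -0.20 (95% interval -0.51 to 0.11). Ins1 had -0.25 (SE 0.29) and Ins2 -0.24 (SE 0.28), and both were -0.04 without the low-insulin library. Iapp, amylin, had -0.62 (SE 0.29, adjusted p = 0.463, edgeR), and -0.41 without it. Hormones of the other islet cells, Gcg and Sst, fell in both genotypes, with differences of -0.24 (SE 0.21) and -0.29 (SE 0.28), or -0.18 and -0.17 without that library. Ppy, the pancreatic polypeptide, fell in islets labelled bKO, from 2400, 1900 and 1480 to 824, 567 and 905 CPM. Controls held 1690, 1840 and 1630 CPM untreated and 921, 1300 and 1430 CPM treated, where its response did not pass (adjusted p = 0.0601, edgeR). The treated groups did not overlap, and its difference was -0.83 (SE 0.30, adjusted p = 0.387, edgeR), or -0.67 without that library. The 31 genes of exocytosis and secretory granules had a median of -0.33, 0 higher and 6 lower at an unadjusted p under 0.05, and a median of -0.15 without that library. Unc13a, which primes vesicles for release, had -0.62 (SE 0.19), and Rab3a, a GTPase of the granule surface, -0.52 (SE 0.17), or -0.49 and -0.40 without that library.

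Metabolic lists differed by small amounts. Of 27 glycolysis and glucose uptake genes, 6 were higher and 2 were lower at an unadjusted p under 0.05, with a median of log2 0.29. Without the low-insulin library the median was 0.21, with 2 higher and 1 lower. Hif1a, the factor that raises glycolysis when oxygen is low, went from 122, 128 and 139 to 259, 258 and 249 CPM in controls, and from 118, 122 and 137 to 299, 351 and 349 CPM in islets labelled bKO. Its treated groups did not overlap, and the difference was 0.43 (SE 0.12, adjusted p = 0.314 in edgeR and 0.0815 in DESeq2). Pfkl, the liver form of phosphofructokinase, had 0.70 (SE 0.24) and Ldhb, a lactate dehydrogenase subunit, -0.50 (SE 0.20). The glucose transporter Slc2a1 rose in both genotypes, and its difference was 0.45 (95% interval -0.01 to 0.90).

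Respiratory chain genes of the mitochondrial and the nuclear genome were listed apart. All 13 genes of the mitochondrial genome had estimates above 0, with a median of log2 0.29 (0.24 without the low-insulin library). Their median response was -1.19 in controls and -0.90 in islets labelled bKO. Just 1 of the 13 had an unadjusted p under 0.05. The 75 nuclear genes had a median of 0.02 (0.05 without the low-insulin library), and 74 of their intervals lay within 2-fold. The 32 genes of the TCA cycle and pyruvate metabolism had a median of -0.01 (0.01 without it) and 30 such intervals. Pink1, a kinase that marks damaged mitochondria for removal, fell in both genotypes. Controls went from 106, 103 and 106 to 65.2, 62.3 and 63.7 CPM, and islets labelled bKO from 88.4, 86.0 and 91.8 to 67.1, 71.5 and 71.6 CPM. No groups overlapped, and the difference was 0.38 (SE 0.08, adjusted p = 0.251 in edgeR and 0.000257 in DESeq2).

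Of 35 fatty acid genes, 6 were higher and 0 were lower at an unadjusted p under 0.05, with a median of log2 0.06, which was 0.00 without the low-insulin library. Acacb, the acetyl-CoA carboxylase at the mitochondrial surface, went from 3.24, 2.35 and 2.41 to 1.28, 1.87 and 1.89 CPM in controls, and from 1.82, 1.75 and 1.16 to 2.16, 3.05 and 2.86 CPM in islets labelled bKO. It fell in controls and rose in islets labelled bKO, and the difference was 1.44 (SE 0.33, adjusted p = 0.251 in edgeR and 0.00966 in DESeq2). Acads and Acadl, dehydrogenases of fatty acid oxidation, had 0.50 (SE 0.18) and 0.38 (SE 0.13), or 0.35 and 0.25 without that library. The 25 cholesterol synthesis genes had a median of 0.04, and -0.13 without the low-insulin library. Among them Pmvk, phosphomevalonate kinase, had -0.51 (SE 0.13, adjusted p = 0.272 in edgeR and 0.0457 in DESeq2). The 29 genes of the pentose phosphate, serine and amino acid pathways had a median of 0.07, and 0.02 without it.

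Stress and growth lists followed the same range. The 30 endoplasmic reticulum stress genes had a median of log2 -0.11 (-0.06 without the low-insulin library), and all 30 intervals lay within 2-fold. The medians were 0.12 over 36 cell death genes (0.04 without it), 0.20 over 28 antioxidant genes (0.07 without it), -0.07 over 19 chaperone genes (-0.04 without it) and 0.07 over 25 immediate early genes (-0.05 without it). Hspb1, a small heat shock protein, went from 17.9, 14.7 and 18.3 to 20.8, 19.2 and 15.4 CPM in controls, and from 12.4, 8.27 and 8.23 to 20.8, 19.4 and 24.7 CPM in islets labelled bKO. It rose in islets labelled bKO, and the difference was 1.05 (SE 0.25, adjusted p = 0.252 in edgeR and 0.0227 in DESeq2). Mgst1, a microsomal glutathione transferase, rose in both, and its difference of 1.32 (SE 0.36, DESeq2 adjusted p = 0.0358) was 0.93 without that library, where it stood at 93.6 CPM against 41.3 and 57.0 CPM in its group. The 26 genes of mitochondrial biogenesis and dynamics had a median of -0.02.

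The 17 targets of STAT5, growth hormone and prolactin had a median of log2 -0.09, and -0.02 without the low-insulin library. Igf1, the growth factor that growth hormone induces in liver, fell in controls from 8.36, 7.86 and 11.3 to 3.58, 2.16 and 3.25 CPM. Islets labelled bKO held 5.72, 5.95 and 5.59 CPM untreated and 4.14, 9.59 and 5.12 CPM treated, where the highest value was that of replicate 2. The difference was 1.75 (SE 0.41, adjusted p = 0.251 in edgeR and 0.00511 in DESeq2), and 1.31 without that library. The 21 disallowed and progenitor genes, which mature beta cells keep low, had a median of 0.37, and 0.08 without it.

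The sign of some list medians rested on the low-insulin library alone. Medians were log2 0.34 over 30 cell cycle genes, 0.51 over 25 collagen and matrix genes and 0.47 over 12 stellate and pericyte markers. Without the low-insulin library they were -0.19, -0.07 and -0.11, beside -0.03 over all genes. No direction is given for these lists. The smaller medians of some other lists, acute phase and cholesterol synthesis genes among them, also changed sign without that library.

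Exocrine and vascular markers had medians above 0 with and without that library. All 18 tested acinar markers had estimates above 0 with all libraries, with a median of log2 1.49 and 9 higher and 0 lower at an unadjusted p under 0.05, and a median of 1.75 with 17 higher without it. The acinar median was 0.69 without replicate 3 of the treated bKO group, whose summed acinar markers were at 4000 CPM against 1810 and 969 CPM. The median response of acinar markers was -2.30 in controls and -0.86 in islets labelled bKO. Ctrb1, a chymotrypsinogen, went from 3160, 2250 and 3560 to 552, 790 and 523 CPM in controls and from 1530, 937 and 1300 to 792, 489 and 1780 CPM in islets labelled bKO, with a difference of 1.97 (SE 0.55, adjusted p = 0.312, edgeR). The last 2 groups overlapped. All 12 ductal markers were above 0, with a median of 0.53 (0.32 without the low-insulin library) and 5 higher. Krt19, a keratin of duct cells, had 1.72 (SE 0.42, adjusted p = 0.270 in edgeR and 0.00796 in DESeq2), and 1.28 without it. All 13 endothelial markers were above 0 as well, with a median of 0.37 (0.31 without it) and 3 higher. Their part in the differences of single genes, Bmp7 and Ggt1 among them, was not tested.

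Other cell types showed smaller or uncertain differences. The 15 macrophage markers had a median of log2 0.13, which was 0.02 without the low-insulin library and ran from -0.03 to 0.29 over libraries left out in turn, with 0 higher and 0 lower at an unadjusted p under 0.05, and summed levels of 623 to 746 CPM in treated controls and 661 to 869 CPM in treated islets labelled bKO. Markers of alpha, delta and pancreatic polypeptide cells had medians of -0.06, 0.13 and -0.11, over 9, 6 and 4 genes, and of -0.01, 0.13 and -0.07 without it. The 8 Schwann cell markers had a median of -0.09, and -0.20 without it. Of T cells, B cells and red blood cells, 4, 4 and 2 markers were tested, with medians of 0.88, -0.25 and -1.08, and of 0.66, -1.54 and -1.10 without it. T cell markers summed to 3.85 to 17.6 CPM and red blood cell markers to under 1 CPM in each library, and B cell markers ran from 1.67 to 257 CPM, the highest in the low-insulin library.

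**Figure D4:**
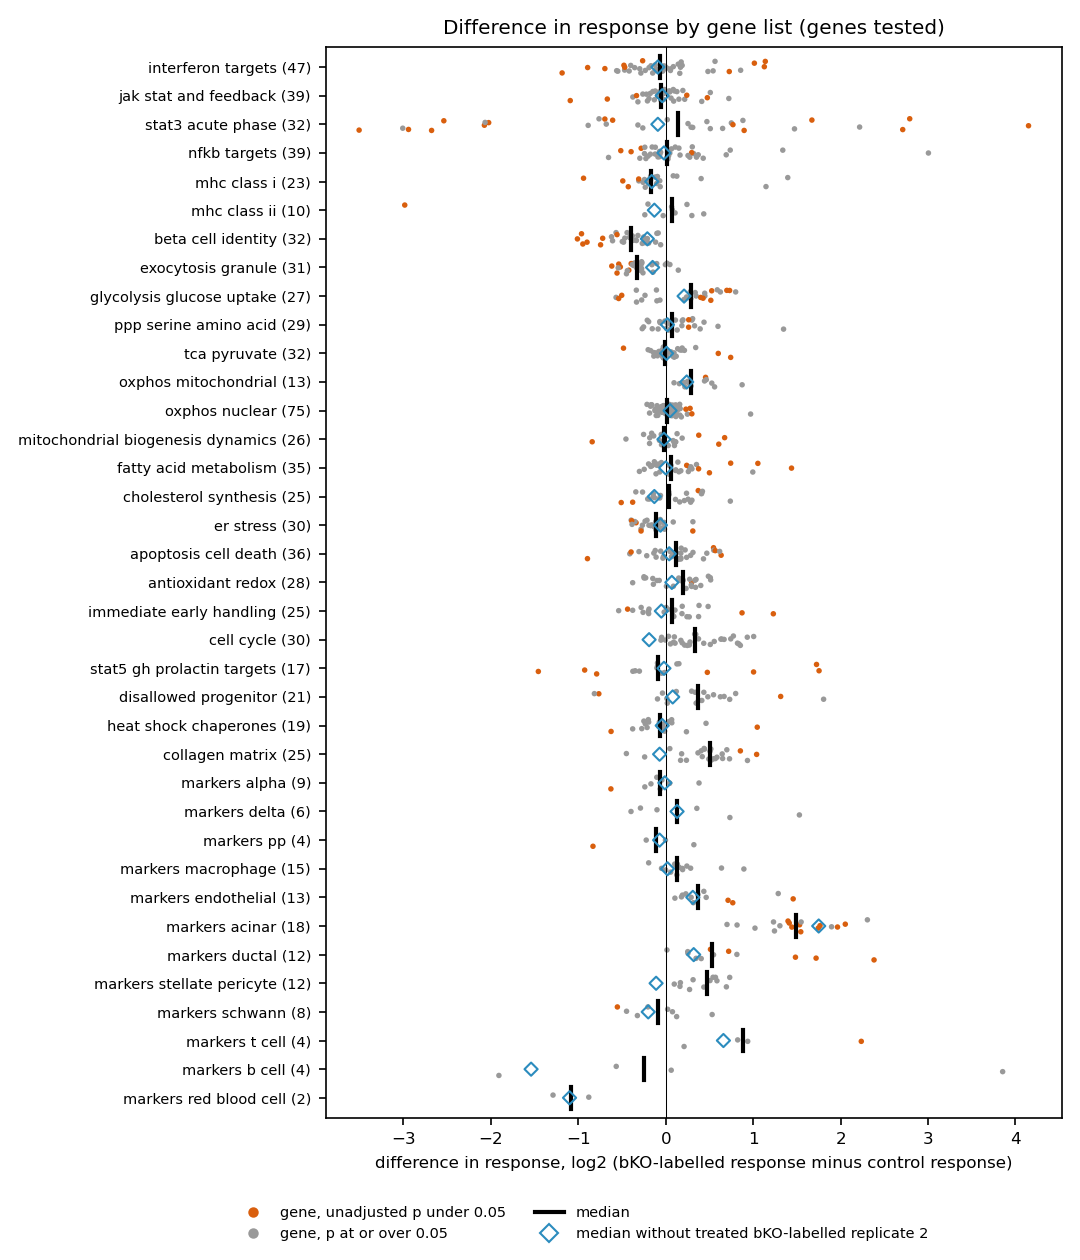
Difference in response, log2, for each tested gene (points) of 37 lists, with the number tested in parentheses, the median (black bar) and the median without the low-insulin library (diamond). The acinar list is farthest to the right at 1.49 and 1.75, and the beta cell identity list moves from -0.40 to -0.21. Bar and diamond lie on opposite sides of 0 for cell cycle, collagen and stellate genes, and for some lists with smaller medians.

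**Figure D5:**
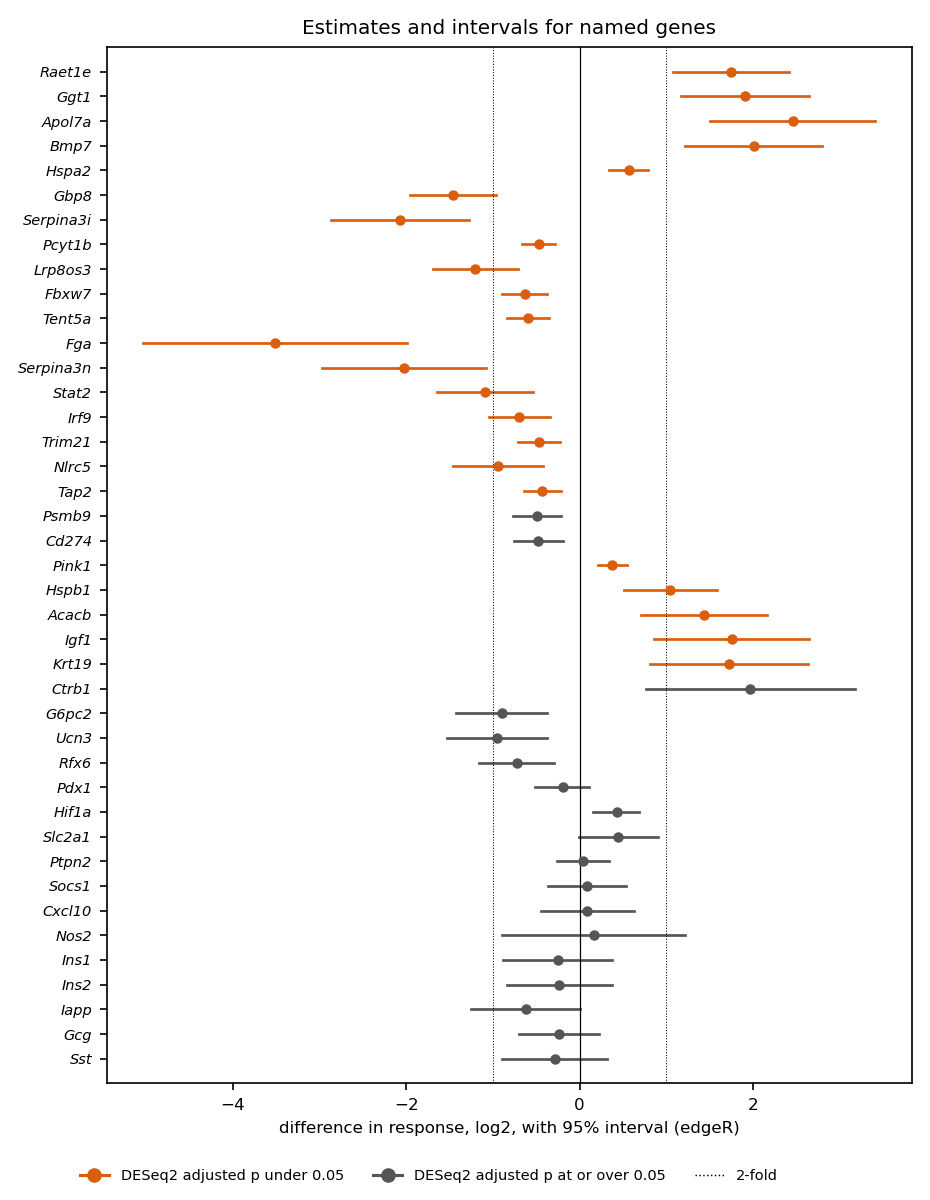
Estimates (points) and 95% intervals (lines) of the difference in response for genes named in the text, from edgeR; orange marks a DESeq2 adjusted p under 0.05, and dotted lines mark 2-fold. None passed in edgeR; the interval of Gbp8 runs from -1.95 to -0.96, and those of Ptpn2, Socs1 and Cxcl10 cross 0 within 2-fold.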

How the data were processed

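Total RNA libraries were counted per gene by the authors. The deposited values are raw counts, per the labels and file values, and FastQC 0.11.7, cutadapt 1.16, STAR 2.5.2a, featureCounts 1.6.2, DESeq2 1.30.0 and GRCm38 are named in the submitters' processing notes. The annotation release and strand setting were not stated in the sources used here, which leaves reads of close copies and overlapping genes uncertain.

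From the full table, filterByExpr with the 4 groups kept 19800 genes. Counts were scaled by TMM and fitted with edgeR 4.0.16 in R 4.3.3 (quasi-likelihood, 1 coefficient per group, all 12 libraries, Benjamini-Hochberg at 0.05). Intervals are at 95%. CPM are per TMM-scaled library. The common biological coefficient of variation was 16.8%. DESeq2 1.42.0, limma-voom 3.58.1 and other scalings, filters, thresholds, blocks and leave-one-out fits were alternatives. The main edgeR test and the DESeq2 test, and no other step, were also run on simulated data. The smallest chi-square per degree of freedom between libraries of a group was 15, over 12 pairs, so none was counted as a copy. Positions are from GENCODE M21 and promoters from RefSeq GRCm38.p6.

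The comparison and the gene lists were chosen with earlier results of these data known. Named genes were for either sign the 6 of smallest adjusted p with a group mean of at least 1 CPM, leaving out predicted genes and ribosomal copies, up to 3 per list, and a fixed set including Ptpn2 and the islet hormones. Some genes that the rule named are not reported here. No count column was left unused.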

Additional observations from a re-analysis of the deposited data

How the results depend on the processing

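The count of 0 higher and 0 lower genes by edgeR held under other scalings, a 1 CPM filter, robust dispersions, the authors' filtered table, limma-voom and thresholds of 0.01 and 0.10. DESeq2 called 100 higher and 86 lower, and 112 and 80 when the low-insulin library (replicate 2 of the cytokine-treated bKO group) was left out, a run added after seeing the data. Of those calls 121 were shared, all with the same sign, 65.1% and 63% of the lists. With no filter 1 gene was lower, Gbp8. Leaving out 1 library gave 0 to 3 higher and 0 to 1 lower genes.

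Deviations from the group means of same-numbered untreated and treated libraries correlated at -0.207, 0.034 and 0.006 in controls. In islets labelled bKO they correlated at -0.103, 0.032 and 0.131. Differently numbered libraries ran from -0.313 to 0.35 in controls and from -0.134 to 0.09 in islets labelled bKO. With 3 libraries per group these values cannot show whether replicate numbers mark a shared mouse. With the replicate number within genotype as a block, 0 were higher and 0 lower, with a smallest adjusted p of 0.518 (edgeR). With the number over all groups as a block, it was 0.441.

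Of 3052 alternative values for 128 named genes, 2980 kept direction and side of the threshold, 58 passed it and 14 reversed, in 8 genes. Over the libraries left out in turn, the ranges of these genes were -2.40 to 0.29 for Pax5, -0.04 to 1.15 for Mki67, -0.08 to 0.97 for Mrc1, -6.95 to 9.88 for Ighm, -0.04 to 0.25 for Socs1, -0.11 to 0.38 for Cxcl10, -0.70 to 0.53 for Nos2 and -0.03 to 0.14 for Ptpn2. DESeq2 without the low-insulin library put Mki67 at -0.03, Mrc1 at -0.07 and Ighm at -7.04, and limma-voom put Nos2 at -0.13. The cause was not tested.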

Other observations

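Several genes outside the lists passed in DESeq2, and the following were picked after their values were seen. Clu, the secreted chaperone clusterin, went from 8360, 6820 and 9750 to 4000, 3480 and 3980 CPM in controls and from 6370, 4340 and 5060 to 4680, 7370 and 8030 CPM in islets labelled bKO. It fell in controls, the groups labelled bKO overlapped, and the difference was log2 1.47 (SE 0.30, adjusted p = 0.251 in edgeR and 0.000806 in DESeq2). Il18bp, the decoy that binds interleukin-18, went from 19.7, 30 and 27.1 to 136, 169 and 159 CPM in controls and from 46.0, 39.8 and 37.3 to 126, 98.4 and 119 CPM in islets labelled bKO. Libraries labelled bKO started higher and ended lower than every control, and the difference was -1.12 (SE 0.22, adjusted p = 0.237 in edgeR and 0.00274 in DESeq2). Pigr, the receptor that carries immunoglobulins across epithelia, had -1.14 (SE 0.23, DESeq2 adjusted p = 0.00397). Ube2l6, the conjugating enzyme for ISG15, had -0.73 (SE 0.15, DESeq2 adjusted p = 0.0137).

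The Rps3a copies, near-identical ribosomal protein genes whose reads may be divided, moved in different directions. Rps3a1 went from 215, 331 and 217 to 564, 566 and 485 CPM in controls and from 458, 426 and 347 to 369, 351 and 348 CPM in islets labelled bKO, a difference of log2 -1.29. With all libraries the adjusted p of Rps3a1 was 0.213 in edgeR and 0.000257 in DESeq2. In edgeR it passed only without untreated control replicate 2 (-1.52, adjusted p = 0.036). Rps3a2 had a difference of 2.29 with all libraries, with an adjusted p of 0.251 in edgeR and 0.0037 in DESeq2. Rps3a3 held 1.71, 1.71 and 54.1 CPM in untreated islets labelled bKO and 53.0 to 111 CPM in untreated controls. Without the library at 54.1 CPM, replicate 3, its difference was 6.88 (adjusted p = 9.85e-05, edgeR), that of Rps3a2 3.04 (0.00349) and that of Cd1d2 8.09 (0.0255).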
